A study of Mus musculus with 3 samples.

Results

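The carboxylesterases are hydrolases that cleave esters, amides and thioesters, and the mouse genome carries them as clusters of near copies on chromosome 8. Most are made in hepatocytes and sit in the lumen of the endoplasmic reticulum, where they split drugs, toxins, triacylglycerol and cholesteryl esters, and a few are secreted into plasma. The Ces1 enzymes are known for esters with a large acyl group and for the hydrolysis of stored triacylglycerol, the Ces2 enzymes for esters with a large alcohol group, and the Ces3 enzymes as esterases of mouse liver. In mice several of these genes respond to the xenobiotic receptors PXR and CAR.

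Levels of 10 carboxylesterase genes were described in mouse liver: Ces1b, Ces1c, Ces1d, Ces1e, Ces1f, Ces1g, Ces2a, Ces2e, Ces3a and Ces3b. They were taken by symbol from a fixed list, and all 10 were found among the 23356 symbols of the tables, each with a valid estimate in every library. The tables hold 19 carboxylesterase symbols in all. The highest level of each of the 10 across the libraries lay between 14.6 and 308 FPKM, and that of each of the other 9 between 0.335 and 6.43 FPKM.

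There were 3 libraries, 1 for each group: mice of genotype Ercc1 delta/- under diet restriction (Ercc1 DR), mice of the same genotype fed ad libitum (Ercc1 AL) and wildtype mice fed ad libitum (wt AL). All were 16 weeks old, of C57BL6J/FVB background, and no group of restricted wildtype mice was analysed here. Ercc1 codes for part of the nuclease that excises damaged DNA, and the mutant is used as a model of fast ageing with defective DNA repair. The allele is constitutive, so every cell of the mutant liver carries it, and the labels give neither the number of animals behind a library nor their sex. The study's title names life span under restriction, and the libraries compare the mutant with the wild type and the restricted with the freely fed mutant. Since each group has 1 library, animal spread is unknown, no test was made, and each difference below is one between libraries.

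Levels are in FPKM, the fragments counted per kilobase of a transcript and per M mapped, with a lower and an upper bound that the authors deposited beside each. The width of those bounds implied 25.04 M fragments in Ercc1 DR, 25.1 M in Ercc1 AL and 19.0 M in wt AL. Genes without a valid estimate, such as albumin, are left out, so these are not full library depths. Ercc1 itself was listed at 0.475, 0.573 and 0.461 FPKM in that order, with overlapping bounds. A level over the whole gene does not check a partly deleted allele, so the genotype labels were taken as given. Of 10 hepatocyte markers, 9 had an estimate (not albumin) and none was below 1 FPKM, and their summed level was 8286, 4029 and 2797 FPKM as deposited, in the same order. Bulk RNA cannot tell fewer cells of a type from less RNA per cell. The libraries also differ as a whole, since the median gene stood higher by 0.49 on the log2 scale in Ercc1 AL against wt AL, by 0.34 in Ercc1 DR against Ercc1 AL and by 0.78 in Ercc1 DR against wt AL. Ratios below are log2 ratios of FPKM + 1 after that shift was taken out (rescaled). The ratio of the values as deposited is given where it changes a direction or a call. On the scale of wt AL the summed hepatocyte markers become 4810, 2863 and 2797 FPKM in Ercc1 DR, Ercc1 AL and wt AL.

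The last 30 coding bases of each gene are shown because they can encode a retention signal. Where the enzymes stay was not measured. The retention signal searched for was histidine, any residue, glutamate and leucine, by which KDEL receptors return proteins from the Golgi to the endoplasmic reticulum. Capitals mark the last 4 codons before the stop codon, 5′ to 3′ on the coding strand, from GENCODE M21 transcripts with positions on GRCm38, the assembly also called mm10.
Ces1b (chr8:93056887-93056916, minus strand): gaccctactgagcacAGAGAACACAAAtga
Ces1c (chr8:93099165-93099194, minus strand): gaccctactgaacacACAGAACACAAAtga
Ces1d (chr8:93166255-93166284, minus strand): ccatcccacagggaaCATGTTGAGCTCtga
Ces1e (chr8:93201404-93201433, minus strand): caactgccgacagaaCACACTGAGCTGtga
Ces1f (chr8:93256429-93256458, minus strand): caaccccagccatacCACAATGAGCTGtga
Ces1g (chr8:93302905-93302934, minus strand): tcatcccatagggaaCATGTTGAACTGtga
Ces2a (chr8:104741387-104741416, plus strand): ggttctcaggacaagCATGCAGAGCTGtag
Ces2e (chr8:104933685-104933714, plus strand): gggtctcaggagaggCACAAAGAGTTGtag
Ces3a (chr8:105058074-105058103, plus strand): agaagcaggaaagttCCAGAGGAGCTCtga
Ces3b (chr8:105093233-105093262, plus strand): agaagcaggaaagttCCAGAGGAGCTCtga
By these codons 6 genes end in this form of the retention signal (Ces1d, Ces1e, Ces1f, Ces1g, Ces2a and Ces2e) and 4 do not. Ces3a and Ces3b end in proline, glutamate, glutamate and leucine, and whether that end retains them was not tested. Ces3a and Ces3b are identical over this stretch. The pentapeptide around the active site serine (glycine, any residue, serine, any residue, glycine) is encoded once in each of the 10 genes, in exon 5, with the serine at residue 221 to 232.

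The Ces1 genes run head to tail on the minus strand, with Ces1b at chr8:93056728-93080017, Ces1c at chr8:93099015-93131283, Ces1d at chr8:93166068-93197838, Ces1e at chr8:93201218-93229619, Ces1f at chr8:93256236-93279747 and Ces1g at chr8:93302369-93337308. The Ces2 and Ces3 genes follow on the plus strand, with Ces2a at chr8:104734003-104741634, Ces2e at chr8:104926260-104934672, Ces3a at chr8:105048601-105058413 and Ces3b at chr8:105083753-105093929. All are protein coding, with 12 to 14 exons and 554 to 571 residues. The 15 pairs of Ces1 genes shared 74.5% to 91.1% of aligned coding bases, Ces2a and Ces2e 83.3%, Ces3a and Ces3b 95.3%, and the 28 pairs from different subfamilies 62.9% to 65.3%. Near copies can share reads, and the authors' counting could split these. Of the 50-base windows of its transcript, Ces3a shared 30.9% with other genes' transcripts and Ces3b 26.1%, mostly with each other, Ces2a 22.2%, mostly with the pseudogene Gm7208, Ces1c 17.0% and Ces1b 11.6%. The other 5 genes shared 1.28% to 3.36%. Among the 10, Ces3a alone overlaps exons of a gene on the opposite strand, Gm45724. Values of the Ces3 pair and of Ces1b with Ces1c are therefore less certain gene by gene than as sums. The windows shared with Gm7208 likewise make the value of Ces2a less certain.

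**Figure D1:**
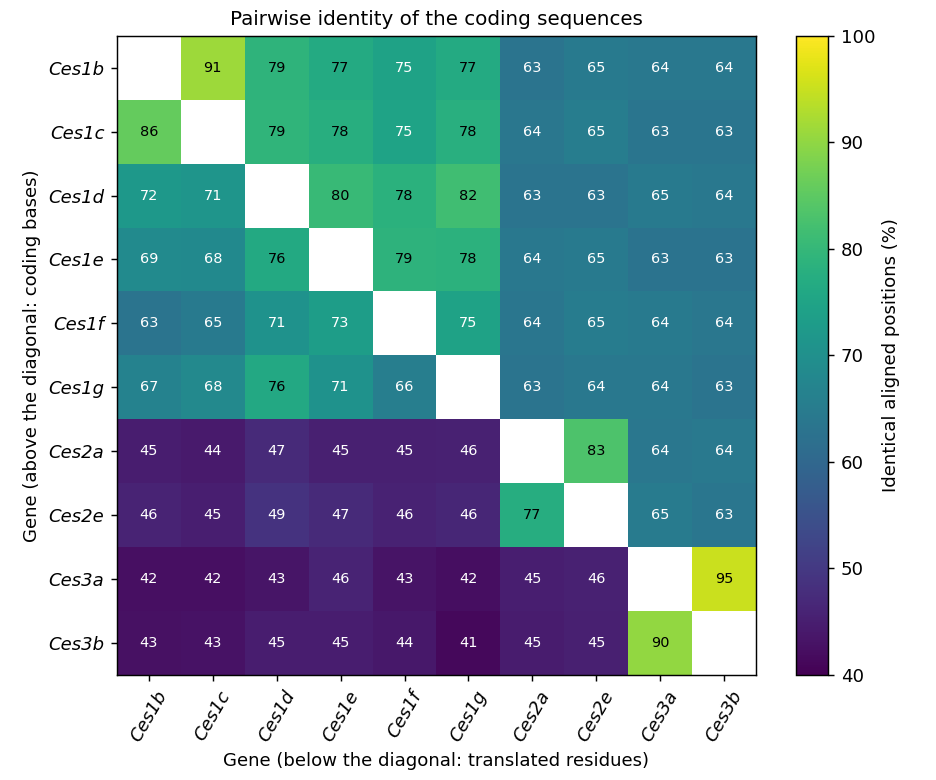
Identity between the 10 genes, as the percent of aligned positions that match, for coding bases above the diagonal and translated residues below it. The Ces3 pair is the closest, at 95.3% of bases and 90.4% of residues, followed by Ces1b with Ces1c, and no pair from different subfamilies exceeds 65.3% of bases.

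The summed level of the 10 genes was 682 FPKM in Ercc1 DR, 689 FPKM in Ercc1 AL and 596 FPKM in wt AL as deposited. Rescaled to wt AL, the order turned, to 396 FPKM for Ercc1 DR, 490 FPKM for Ercc1 AL and 596 FPKM for wt AL. The makeup of the sum differed between libraries. In Ercc1 DR the Ces1 genes gave 75.7% of the sum, the Ces2 genes 11.1% and the Ces3 genes 13.2%. In Ercc1 AL the shares were 52.9% for Ces1, 4.54% for Ces2 and 42.6% for Ces3. In wt AL they were 68.1%, 5.41% and 26.5%. The Ces3 share was thus highest in the freely fed mutant and lowest in the restricted mutant, and the Ces2 share was highest in the restricted mutant. Such shares do not depend on how libraries are scaled against each other. The 6 genes that end in histidine, any residue, glutamate and leucine gave 33.6% of the sum in Ercc1 DR, 17.8% in Ercc1 AL and 28.8% in wt AL.

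**Figure D2:**
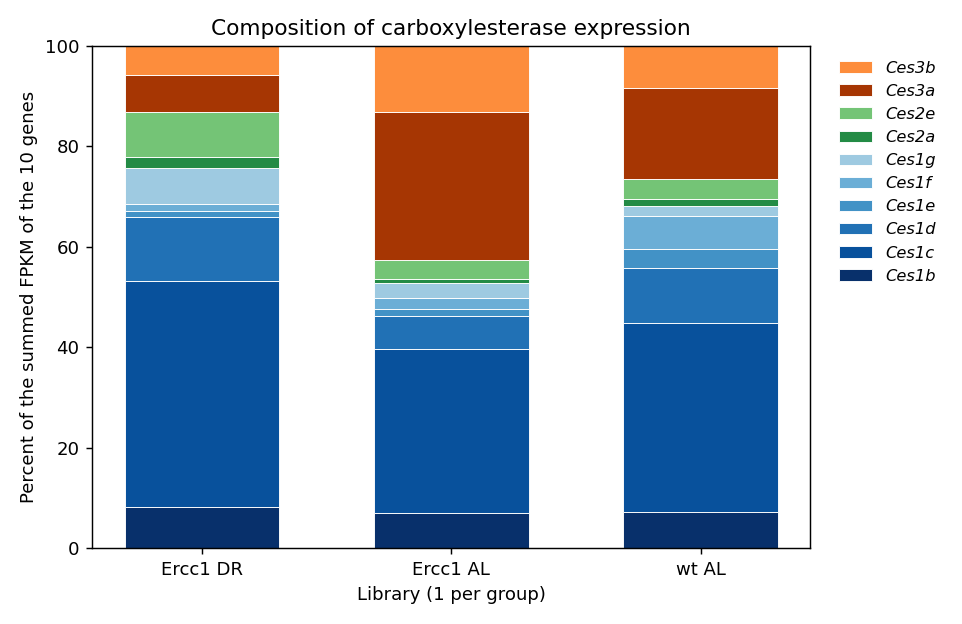
Share of each gene in the summed FPKM of the 10 genes, in percent, for Ercc1 DR, Ercc1 AL and wt AL, with 1 bar per library. Ces1c is the largest segment in each bar (45.1%, 32.6% and 37.5%), and Ces3a takes 7.38%, 29.4% and 18.2%.

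Ces1c, whose product is the main carboxylesterase of mouse plasma, had the highest FPKM of the 10 in each library. It stood at 308 FPKM in Ercc1 DR (bounds 272 to 278), 225 FPKM in Ercc1 AL (199 to 204) and 223 FPKM in wt AL (197 to 203). Its bounds in the 2 freely fed libraries overlapped as deposited, but the rescaled ratio of Ercc1 AL to wt AL was -0.48 (-0.52 to -0.44). Ces1b, its closest relative, stood at 55.5, 47.9 and 43.5 FPKM in the same order. The ratio of Ces1c to Ces1b within a library was 5.54, 4.70 and 5.13. Values of all 6 Ces1 genes lay above the upper bound deposited beside them in every library, at 1.07 to 1.12 times the midpoint of the bounds, while Ces2 values lay inside. By the midpoints, Ces3a at 206 FPKM stood above Ces1c at 202 FPKM in Ercc1 AL. In Ercc1 DR Ces3a at 50.9 FPKM stood above Ces1b at 50.3 FPKM by the same measure. The deposited bounds are narrow and cover fragments of 1 library only.

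Ces1d, Ces1e, Ces1f and Ces1g are the Ces1 genes here that end in the retention signal searched for, and each had its own pattern. Ces1d, the triacylglycerol hydrolase that draws on stored lipid for lipoprotein assembly, stood at 86.9 FPKM in Ercc1 DR, 46.4 FPKM in Ercc1 AL and 65.8 FPKM in wt AL. Ces1e, also called egasyn, holds beta-glucuronidase in the endoplasmic reticulum. It stood at 8.09 and 8.43 FPKM in Ercc1 DR and Ercc1 AL, with bounds that overlapped as deposited, against 22.2 FPKM in wt AL. The rescaled ratio of Ces1e in Ercc1 DR against Ercc1 AL was -0.35 (-0.50 to -0.17). Ces1f, another triacylglycerol hydrolase, stood at 8.69, 16.3 and 39.7 FPKM in Ercc1 DR, Ercc1 AL and wt AL. It was lowest in the restricted mutant and highest in the wild type. Ces1g, whose loss in mice raises blood lipids, ran the opposite way at 49.3, 20.5 and 11.6 FPKM. The ratio of Ces1g to Ces1f within a library was 5.68 in Ercc1 DR, 1.26 in Ercc1 AL and 0.291 in wt AL.

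Ces2a stood at 14.6 FPKM in Ercc1 DR (bounds 13.9 to 15.3), 5.32 FPKM in Ercc1 AL (4.93 to 5.71) and 7.85 FPKM in wt AL (7.34 to 8.38). Ces2e stood at 61.2 FPKM (59.9 to 63.5), 26.0 FPKM (25.3 to 27.1) and 24.4 FPKM (23.4 to 25.5) in the same order. As deposited both Ces2 genes were highest in the restricted mutant, but the rescaled ratio of Ces2a in Ercc1 DR against wt AL was 0.10 with a range of -0.05 to 0.25, which includes 0. As deposited, the bounds of the freely fed libraries overlapped for Ces2e but not for Ces2a. The rescaled ratios of Ercc1 AL to wt AL were -0.38 (-0.48 to -0.27) for Ces2e and -0.89 (-1.06 to -0.72) for Ces2a. Ces3a, described in mouse liver as a male-predominant esterase, stood at 50.3 FPKM in Ercc1 DR (49.6 to 52.2), 203 FPKM in Ercc1 AL (204 to 209, just above the value) and 108 FPKM in wt AL (108 to 112). Ces3b stood at 39.6 FPKM (38.7 to 41.2), 90.5 FPKM (89.7 to 93.5) and 49.4 FPKM (48.4 to 51.3). Both were highest in the freely fed mutant and lowest in the restricted mutant, as deposited and after rescaling. The ratio of Ces3a to Ces3b was 1.27 in Ercc1 DR (1.20 to 1.35 from the bounds), 2.24 in Ercc1 AL (2.18 to 2.33) and 2.19 in wt AL (2.10 to 2.31).

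**Figure D3:**
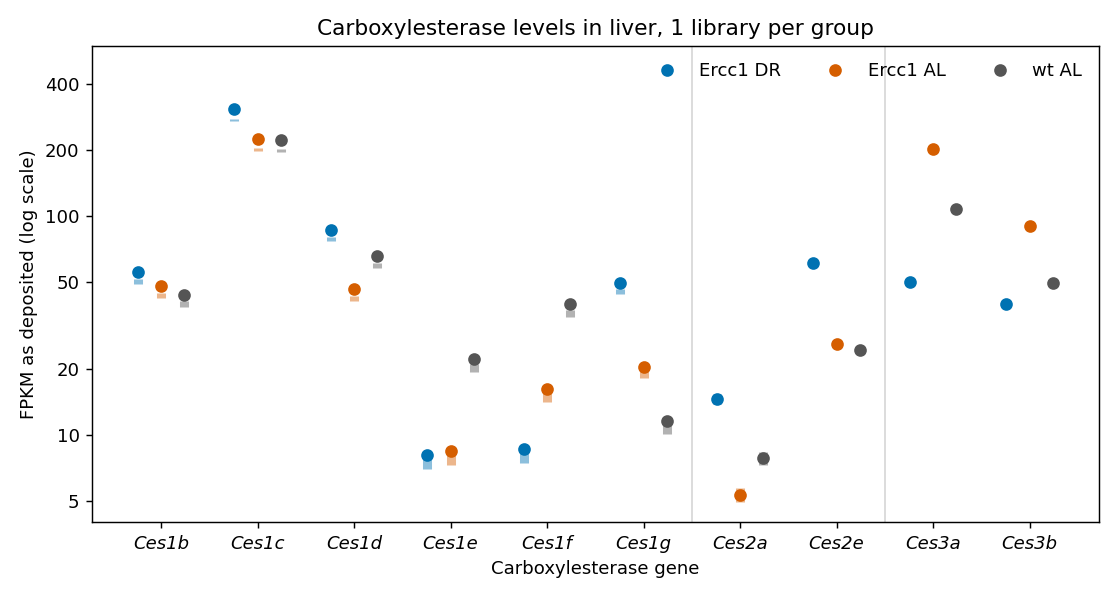
FPKM as deposited on a log axis for each gene, with Ercc1 DR left, Ercc1 AL in the middle and wt AL right. Points are the values of 1 library each and bars the deposited bounds, which lie below the points for the Ces1 genes and are mostly hidden by the points for Ces2 and Ces3. Ces3a spans 50.3 to 203 FPKM and Ces1f 8.69 to 39.7 FPKM.

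The order of levels by FPKM differed between libraries. In Ercc1 DR it ran from Ces1c through Ces1d, Ces2e, Ces1b, Ces3a, Ces1g, Ces3b and Ces2a to Ces1f and Ces1e, and the bounds of Ces1b and Ces3a and of Ces1f and Ces1e overlapped. In Ercc1 AL it ran from Ces1c through Ces3a, Ces3b, Ces1b, Ces1d, Ces2e, Ces1g, Ces1f and Ces1e to Ces2a, with overlap between Ces1c and Ces3a and between Ces1b and Ces1d. In wt AL it ran from Ces1c through Ces3a, Ces1d, Ces3b, Ces1b, Ces1f, Ces2e, Ces1e and Ces1g to Ces2a with no overlap between neighbours. The highest gene exceeded the lowest 38.0-fold in Ercc1 DR, 42.3-fold in Ercc1 AL and 28.4-fold in wt AL.

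In the freely fed mutant against the freely fed wild type, Ces1e and Ces1f were the only carboxylesterases past a 2-fold difference, and both were lower. With a pseudocount of 0.1 FPKM Ces2a joined them at -1.04. The log2 ratio of Ces1e was -1.73 (-1.84 to -1.58 from the bounds) and that of Ces1f -1.69 (-1.79 to -1.56). Both lay in the lowest 1% of genes compared, at the percentiles 0.903 and 0.960. Over all 12294 genes compared, 4.52% were at least 2-fold lower and 2.19% at least 2-fold higher, against 2 and 0 of the 10 carboxylesterases. As deposited the same 2 were lower, with 2.2% of all genes, and 0 higher, with 5.7%. Of all calls, 32.6% were higher ones after rescaling and 72.2% as deposited. Ces1d at -0.98 (-1.05 to -0.90) and Ces2a at -0.89 (-1.06 to -0.72) lay just inside the threshold, with ranges that reach past it. Ces3a at 0.41, Ces3b at 0.38 and Ces1g at 0.31 were somewhat higher. Ces1b at -0.35, Ces1c at -0.48 and Ces2e at -0.38 were lower, but as deposited they turned to 0.13, 0.01 and 0.09. The median of the 10 was -0.43 (0.050 as deposited), against 0.01 over all genes compared.

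In the restricted mutant against the freely fed mutant, both Ces3 genes and Ces1f were lower, while Ces1g, Ces2a and Ces2e were close to 2-fold higher. The ratio of Ces3a was -2.32 (-2.38 to -2.27), the 262nd lowest of 12295 genes. Ces3b followed at -1.50 (-1.58 to -1.43) and Ces1f at -1.14 (-1.28 to -0.97), and the range for Ces1f includes differences smaller than 2-fold. That made 3 of 10 carboxylesterases at least 2-fold lower, where 11.3% of all genes were, and 0 higher, where 2.95% were. Ces2a at 0.99 (0.84 to 1.15), Ces1g at 0.90 (0.80 to 0.98) and Ces2e at 0.88 (0.79 to 0.97) lay just inside the threshold. As deposited they passed it at 1.30, 1.22 and 1.21, which gave 3 genes higher and 2 lower, with 6.47% and 8.65% of all genes, and Ces1f was then at -0.84. Of all calls, 20.7% were higher ones after rescaling and 42.8% as deposited. Ces1d stood at 0.56, Ces1c at 0.11 and Ces1e at -0.35, while Ces1b at -0.12 turned to 0.21 as deposited. The median ratio was -0.0029 (0.33 as deposited), against -0.06 over all genes.

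In the restricted mutant against the freely fed wild type, 4 carboxylesterases were at least 2-fold lower and 1 higher. Ces1f had the lowest ratio at -2.75 (-2.85 to -2.59), followed by Ces1e at -2.03 (-2.13 to -1.86), Ces3a at -1.85 (-1.92 to -1.79) and Ces3b at -1.07 (-1.16 to -0.99). Ces1g was higher at 1.24 (1.11 to 1.33). Among all 12054 genes compared, 14.4% were at least 2-fold lower and 5.29% higher, so such differences were common in this comparison. As deposited, Ces2e joined Ces1g above 2-fold, with 24.1% of all genes, and Ces3b at -0.31 left 3 genes below it, with 8.56%. Of all calls, 26.9% were higher ones after rescaling and 73.8% as deposited. Ces2e stood at 0.53 and Ces2a at 0.10 (-0.05 to 0.25). Ces1b at -0.42, Ces1c at -0.32 and Ces1d at -0.38 turned to 0.34, 0.46 and 0.40 as deposited. Each library enters a pair of these comparisons, so the comparisons are not independent of one another. The median of the 10 was -0.40 (0.37 as deposited), against -0.03 over all genes.

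**Figure D4:**
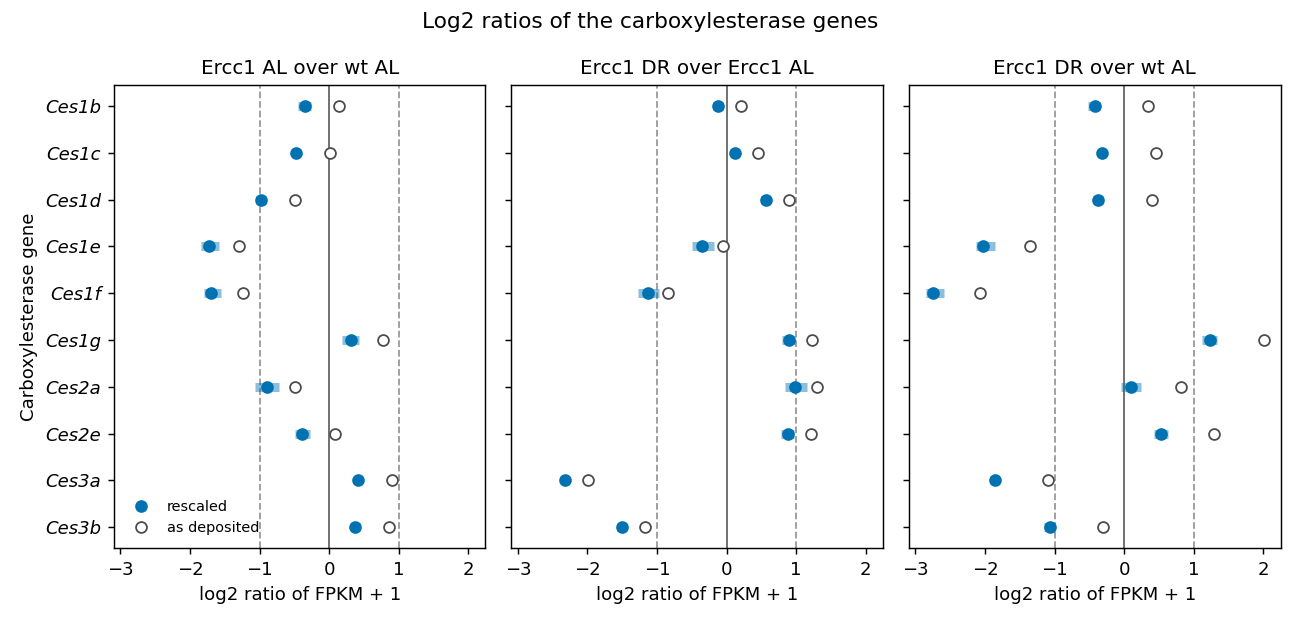
Log2 ratio of FPKM + 1 for each gene in the 3 comparisons, rescaled by the median gene (filled, with the range the deposited bounds give) and as deposited (open). Dashed lines mark a 2-fold difference. Ces1e and Ces1f lie left of the lower line in Ercc1 AL over wt AL, and Ces3a lies at -2.32 in Ercc1 DR over Ercc1 AL.

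Cell type markers differed between the same libraries, and no marker with an estimate was at 0. Sums are as deposited. In Ercc1 DR, Ercc1 AL and wt AL the summed endothelial markers were 12.6, 21.5 and 28.4 FPKM, the macrophage markers 10.7, 15.6 and 13.1 FPKM and the stellate markers 37.2, 32.3 and 19.6 FPKM. On the scale of wt AL some directions turn, with macrophage sums of 6.18, 11.1 and 13.1 FPKM and stellate sums of 21.6, 23.0 and 19.6 FPKM. The median ratio of the stellate markers in Ercc1 DR against wt AL was -0.23 after rescaling and 0.28 as deposited. Dcn gave most of the stellate sums, at 30.8, 24.5 and 13.5 FPKM as deposited in Ercc1 DR, Ercc1 AL and wt AL. Pericentral hepatocyte markers summed to 2655, 1294 and 500 FPKM and periportal ones to 1965, 784 and 521 FPKM. Cyp2e1 alone gave 2431, 1164 and 415 FPKM of the pericentral sums. In Ercc1 DR against Ercc1 AL the rescaled median was 0.03 for pericentral and 0.97 for periportal markers, against -0.06 over all genes. Adipocyte markers summed to 13.0, 5.99 and 3.02 FPKM. Cidec gave the most in Ercc1 DR (8.18 FPKM), but Fabp4 did in Ercc1 AL (2.93 FPKM) and wt AL (1.16 FPKM). Adipoq, which encodes adiponectin, stood at 0.149, 0.492 and 0.320 FPKM in Ercc1 DR, Ercc1 AL and wt AL. The part of these differences in the carboxylesterase values was not tested.

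The median absolute log2 ratio of the 10 carboxylesterases was 0.44 in Ercc1 AL against wt AL, 0.89 in Ercc1 DR against Ercc1 AL and 0.80 in Ercc1 DR against wt AL, against 0.22, 0.36 and 0.45 over all genes compared. Many of those genes are low, and the pseudocount shrinks their ratios. Lowest and highest gene were 2.14, 3.31 and 3.99 log2 units apart in the same order. After rescaling, the Ces2 genes had the same sign as each other in each comparison, as did the Ces3 genes, although Ces2e turned positive as deposited in Ercc1 AL against wt AL. The Ces1 genes held both signs in each comparison.

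Promoters of Ces1g, Ces2a, Ces2e and Ces3b are shown since these genes stood on opposite sides in the restricted mutant. The windows are RefSeq's on GRCm38.p6, 300 bases each on the gene's strand, of which the last 50 follow the start. Searched on both strands were the core promoter element TATAAA, the zinc finger factor motif GATAAG, the nuclear receptor core AGGTCA, the STAT motif TTCNNNGAA and the antioxidant response motif TGACNNNGC. Matches are in capitals, and none overlaps another.
Ces1g (chr8:93337160-93337459, minus strand): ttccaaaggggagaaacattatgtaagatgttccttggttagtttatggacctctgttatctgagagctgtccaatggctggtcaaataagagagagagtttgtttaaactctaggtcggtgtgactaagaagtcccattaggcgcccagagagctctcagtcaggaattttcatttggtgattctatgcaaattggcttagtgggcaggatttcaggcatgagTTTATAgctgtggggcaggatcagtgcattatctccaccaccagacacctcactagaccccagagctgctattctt
Ces2a (chr8:104733753-104734052, plus strand): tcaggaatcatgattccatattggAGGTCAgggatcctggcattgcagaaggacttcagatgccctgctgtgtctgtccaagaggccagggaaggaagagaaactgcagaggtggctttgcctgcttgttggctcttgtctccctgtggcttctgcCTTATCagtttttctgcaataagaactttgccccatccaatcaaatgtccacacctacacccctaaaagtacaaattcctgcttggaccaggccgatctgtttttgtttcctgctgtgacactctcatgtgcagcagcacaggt
Ces2e (chr8:104926010-104926309, plus strand): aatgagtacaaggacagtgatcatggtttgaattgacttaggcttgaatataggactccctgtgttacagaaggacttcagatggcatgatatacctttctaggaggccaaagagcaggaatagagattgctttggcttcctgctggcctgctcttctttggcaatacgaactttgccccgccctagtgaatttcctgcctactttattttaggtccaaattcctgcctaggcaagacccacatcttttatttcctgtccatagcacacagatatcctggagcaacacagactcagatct
Ces3b (chr8:105083505-105083804, plus strand): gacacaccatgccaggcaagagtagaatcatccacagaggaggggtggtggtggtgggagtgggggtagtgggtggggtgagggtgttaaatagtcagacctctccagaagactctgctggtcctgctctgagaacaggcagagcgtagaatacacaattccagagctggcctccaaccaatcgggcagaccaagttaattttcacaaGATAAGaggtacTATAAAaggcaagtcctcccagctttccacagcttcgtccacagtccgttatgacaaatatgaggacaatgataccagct
TATAAA, held by 13.6% of 32817 RefSeq windows, matched on the gene's own strand 30 bases before the start of Ces3b. In Ces1g it matched on the strand opposite to the gene, 26 bases before the start. Both distances are counted from RefSeq's starts. GENCODE M21 begins Ces1g further upstream, at chr8:93337308, so by that annotation the match lies inside the gene. GATAAG, held by 7.45%, matched in Ces3b and Ces2a, and AGGTCA, held by 16.3%, in Ces2a. TTCNNNGAA (8.29%) and TGACNNNGC (12.4%) matched in 0 of the 7 genes with a window. Windows of Ces1b and Ces1c were 93.4% and 95.4% identical over the 2 starts listed for Ces1b, while those of Ces2a and Ces2e were 69.4% identical. Windows of Ces1d, Ces1f and Ces3a were not used here.

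The 9 other carboxylesterase genes of the tables were low. Ces2c stood at 6.43 FPKM in Ercc1 DR, 2.84 FPKM in Ercc1 AL and 1.82 FPKM in wt AL, Ces2g at 6.28, 3.41 and 3.31 FPKM, and the pseudogene Ces2d-ps at 3.99, 2.20 and 1.48 FPKM. Ces1a stood at 3.08, 4.72 and 4.29 FPKM and Ces4a at 1.05, 2.13 and 2.06 FPKM. As deposited these 3 Ces2 genes were highest in the restricted mutant, but the rescaled ratio of Ces2g in Ercc1 DR against wt AL was 0.11 with a range of -0.09 to 0.26. Their ratios in Ercc1 DR against Ercc1 AL were 0.67, 0.44 and 0.38, while Ces1a stood at -0.73 and Ces4a at -0.77. None of these 5 was past 2-fold after rescaling. As deposited Ces2c at 1.40 and Ces2d-ps at 1.01 were higher in Ercc1 DR against wt AL, where 24.1% of all genes were. Ces2b, Ces2f, Ces2h and Ces5a stayed below 1 FPKM in every library.

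Of 31 other liver hydrolases of esters, amides and lipids, 28 were compared in Ercc1 DR against Ercc1 AL. There 3 were at least 2-fold higher and 0 lower, with a median of 0.23. Pnpla2, the lipase that starts the breakdown of lipid droplets, stood at 15.7 FPKM in Ercc1 DR, 3.41 FPKM in Ercc1 AL and 1.81 FPKM in wt AL, with a ratio of 1.61 in the restricted against the freely fed mutant. Lpl, lipoprotein lipase, stood at 6.71, 1.33 and 0.867 FPKM (1.44), and Bche, the plasma cholinesterase, at 27.0, 9.62 and 6.04 FPKM (1.07). Against wt AL, 0 of 29 were past 2-fold in Ercc1 AL (median -0.13), where Pon2 at -0.72 and Mgll at -0.62 had the lowest ratios. In Ercc1 DR against wt AL 4 of 29 were higher and 2 lower (median 0.06), the 2 lower being Mgll, which splits monoacylglycerol, at -1.37 and Pon2, a paraoxonase, at -1.36. As deposited 0 were lower, and the higher counts were 1, 6 and 10, in Ercc1 AL against wt AL, Ercc1 DR against Ercc1 AL and Ercc1 DR against wt AL. Over all genes compared, 5.7%, 6.47% and 24.1% were higher as deposited in that order, and 2.2%, 8.65% and 8.56% lower. After rescaling the shares were 2.19%, 2.95% and 5.29% higher and 4.52%, 11.3% and 14.4% lower.

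Regulators of carboxylesterase genes were compared over a list of 21. In Ercc1 AL against wt AL 1 of 19 was higher, Nr0b2 (1.15), a corepressor induced by bile acids, and 1 lower, Foxa2 (-1.29), a hepatocyte pioneer factor. In Ercc1 DR against Ercc1 AL 1 of 21 was higher, Foxa2 (1.38), and 1 lower, Bcl6 (-1.67), a repressor that growth hormone holds down. In Ercc1 DR against wt AL Nr0b2 (1.47) was higher and Bcl6 (-1.75) lower. Bcl6 stood at 1.35 FPKM in Ercc1 DR, 5.56 FPKM in Ercc1 AL and 5.01 FPKM in wt AL. Nr1i2, which encodes PXR, stood at 6.59, 5.30 and 2.03 FPKM, and Nr1i3, which encodes CAR, at 8.11, 7.00 and 7.77 FPKM. Neither receptor was past 2-fold after rescaling. As deposited Nr1i2 was past it, at 1.06 in Ercc1 AL against wt AL and 1.33 in Ercc1 DR against wt AL, where the rescaled ratios were 0.66 and 0.67. As deposited, 4, 2 and 7 regulators were higher and 0, 1 and 1 lower, in the order of the comparisons above. Among all genes compared, 5.7%, 6.47% and 24.1% were then higher and 2.2%, 8.65% and 8.56% lower. Rescaled, those shares were 2.19%, 2.95% and 5.29% higher and 4.52%, 11.3% and 14.4% lower.

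The machinery that retains and folds proteins in the endoplasmic reticulum gave 0 calls among 9 genes compared in each comparison, with medians of 0.18, -0.38 and 0.09 in Ercc1 AL against wt AL, Ercc1 DR against Ercc1 AL and Ercc1 DR against wt AL. Kdelr2, a receptor for the retention signal, stood at 15.4 FPKM in Ercc1 DR, 15.0 FPKM in Ercc1 AL and 6.45 FPKM in wt AL. Gusb, the beta-glucuronidase that Ces1e binds, stood at 4.65, 2.76 and 2.18 FPKM, with a ratio of -0.10 (0.24 as deposited) in Ercc1 AL against wt AL, where Ces1e stood at -1.73. Of 11 genes of triacylglycerol storage and lipoprotein assembly, 0 were past 2-fold in Ercc1 AL against wt AL, and 1 was higher in Ercc1 DR against Ercc1 AL, the droplet protein Cidec (1.55). In Ercc1 DR against wt AL Cidec (1.52) and Tm6sf2 (1.01), a factor in lipoprotein export, were higher and the droplet coat protein Plin2 (-1.26) lower. Medians over the 11 were -0.06, 0.18 and 0.21. As deposited 1, 1 and 2 of the retention and folding genes and 0, 3 and 4 of the lipid genes were higher, and 0 of either list lower, in the order Ercc1 AL against wt AL, Ercc1 DR against Ercc1 AL and Ercc1 DR against wt AL. The shares over all genes compared were 5.7%, 6.47% and 24.1% higher and 2.2%, 8.65% and 8.56% lower. On the rescaled values they were 2.19%, 2.95% and 5.29% higher and 4.52%, 11.3% and 14.4% lower.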

How the data were processed

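Mouse liver RNA depleted of ribosomal RNA was sequenced with the Illumina TruSeq v3 protocol on a HiSeq2000, per the labels. The authors deposited 1 table of FPKM per library that adds bounds and a status to each value, per the file headers. Per the submitters' processing notes the build was mm10. Tool, version, annotation and strand use in counting were not given in the sources used here, so antisense partners may add reads. Values with the status HIDATA or FAIL were treated as missing, which touched none of the 10 carboxylesterases. Where a symbol had several rows, the most abundant one on average was kept. FPKM hold no counts, and the fragment totals given are implied by the bounds, taken as 2 SD from their midpoint.

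Libraries were grouped by their titles. The median log2 ratio over 9053 genes at 1 FPKM or more in all 3 libraries was taken out of each comparison. Ratios used a pseudocount of 1 FPKM, which understates the change of low genes, and genes at 1 FPKM or more in either library were compared. A gene was counted as higher or lower past 2-fold. All 10 carboxylesterases are named, and from the other lists mainly those with the largest ratios. The genes and lists were chosen with earlier results of these data known. Sequences came from GENCODE M21 and RefSeq, and coding sequences were aligned and translated with Biopython 1.88. Values were computed with Python 3.11.15, pandas 2.3.3 and NumPy 2.4.6, and the computation was tested on simulated data. Alternatives were the values as deposited, scaling by summed FPKM, other pseudocounts, other minimum levels, the midpoint of the bounds in place of the FPKM, and the sum of all rows of a symbol.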

Additional observations from a re-analysis of the deposited data

How the results depend on the processing

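Of 30 gene ratios, 10 were past 2-fold, and 8 of these stayed past it in each of the 8 alternatives. The exceptions were Ces1f in Ercc1 DR against Ercc1 AL and Ces3b in Ercc1 DR against wt AL, which came inside the threshold as deposited and with a pseudocount of 5 FPKM. No ratio past 2-fold changed sign, and 7 smaller ones did, all as deposited. As deposited, 3 genes in place of 0 were higher in Ercc1 DR against Ercc1 AL (1 with a pseudocount of 0.1 FPKM) and 2 in place of 1 in Ercc1 DR against wt AL. With a pseudocount of 0.1 FPKM Ces2a also passed 2-fold in Ercc1 AL against wt AL, at -1.04, which gave 3 genes lower in place of 2. The median of the 10 became 0.050, 0.33 and 0.37 as deposited, in Ercc1 AL against wt AL, Ercc1 DR against Ercc1 AL and Ercc1 DR against wt AL, against -0.43, -0.0029 and -0.40, and -0.28 and -0.062 in the first pair of comparisons when scaled to summed FPKM without the 100 most abundant and the small RNA genes. Values as deposited keep the whole-library shift by construction. Interval half-widths were 1.01% to 7.27% of the value, but all 18 Ces1 values lay above their own bounds. The bounds do not cover spread between animals, which is unknown and limits what a single library can show. No paired analysis was possible because there was 1 library per group and no replicate number.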

Other observations

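Of 20 other genes within 200 kb of the 10 carboxylesterases, 14 reached 1 FPKM in some library. Among them 0 were at least 2-fold lower in Ercc1 AL against wt AL, 3 in Ercc1 DR against Ercc1 AL and 2 in Ercc1 DR against wt AL. In the same order 1, 0 and 1 were higher. Over all genes compared, 4.52%, 11.3% and 14.4% were lower and 2.19%, 2.95% and 5.29% higher. The higher gene in Ercc1 AL against wt AL, also 1 of the 3 lower in Ercc1 DR against Ercc1 AL, is the small RNA gene Mir297-2, listed at 0 in Ercc1 DR, 77.1 FPKM in Ercc1 AL and 0 in wt AL. Cdh16, a cadherin best known from kidney, lies between the Ces1 and Ces2 clusters and stood at 9.34 FPKM in Ercc1 DR, 26.4 FPKM in Ercc1 AL and 25.5 FPKM in wt AL. Its ratio in Ercc1 DR against Ercc1 AL was -1.71, where Ces2a stood at 0.99 and Ces2e at 0.88. Nae1, a subunit of the enzyme that activates NEDD8, stood at 9.59, 4.40 and 2.22 FPKM, with 1.03 in Ercc1 DR against wt AL.

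Among 2079 genes the nearest to the median pattern of the 10 carboxylesterases, over 3 libraries, were Mien1, Gna11, Scarb2, Tgoln1 and Atp11b, at distances of 0.0062 to 0.0439 log2 units. That median lies far from most of the 10, which limits what the likeness describes.

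In Ercc1 DR, Ercc1 AL and wt AL, kidney markers summed to 11.3, 30.0 and 30.6 FPKM, mostly Cdh16, and intestine markers to 20.7, 19.6 and 15.7 FPKM, mostly Fabp2. On the scale of wt AL the intestine sums run the other way, with 13.9 FPKM in Ercc1 AL against 15.7 FPKM in wt AL and the lowest sum in Ercc1 DR. Cholangiocyte markers summed to 4.78, 4.44 and 6.52 FPKM and pancreas markers to 4.07, 8.89 and 6.39 FPKM, which on the scale of wt AL become 2.77, 3.16 and 6.52 FPKM and 2.36, 6.32 and 6.39 FPKM.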
